A study of Mus musculus with 12 samples.

Results

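The replication-dependent histone genes were examined in regulatory T cells (Treg) that lacked Ikaros or did not. Members were the ATAC-seq regions that overlapped the body of a histone gene or the 2 kb on either side of it. Histone genes were protein-coding genes whose symbol begins with Hist1h, Hist2h, Hist3h or Hist4h. This rule used no measured value, although the members were chosen with earlier results of these data known. There were 71 such regions of 118680 in all, and 61 of the 71 passed the filter on low values, among 69957 regions tested. They belonged to 67 genes, namely 6 of linker histone H1, 19 of H2A, 18 of H2B, 11 of H3 and 13 of H4, and 47 of the 71 regions covered the start site of at least 1 of these genes.

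ATAC-seq measures how readily the Tn5 transposase inserts into DNA, and it was performed on Treg sorted for YFP from mice, with spleen as the tissue in the labels and spleen and lymph node as the source of Treg in the study's general methods, with 100000 cells per library and 3 libraries in each of 4 groups. All mice carried the Foxp3-YFP-Cre allele, which drives Cre in cells that express Foxp3. WT Treg had no floxed allele, whereas Ikzf1-cko Treg also carried a floxed Ikzf1 allele from which Cre makes an Ikzf1-null allele in cells that express Foxp3. The 4 groups were WT ex vivo, Ikzf1-cko ex vivo, WT stimulated and Ikzf1-cko stimulated, where stimulation was 4 h on plate-bound antibodies to CD3 and CD28. In such bulk samples, more cells with an open region and a more open region per cell cannot be told apart. The study's methods divided the sorted Treg into a stimulated and an unstimulated part, so stimulated and ex vivo libraries of a genotype may share mice. The main fit treated all libraries as independent. The age of the mice used for ATAC-seq was not given in the sources used here, nor whether libraries of the same number came from the same mouse, so p-values measure the spread between these libraries.

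Replication-dependent histone genes supply the core histones and H1 that package newly made DNA, and they are transcribed mainly in S phase. They lie in clusters, many as divergent pairs that share a stretch of promoter, and their transcription is gathered at the histone locus body by the factor NPAT. Their mRNAs are not polyadenylated and end in a short stem-loop that is bound by SLBP. Ikaros, the product of Ikzf1, is a zinc finger protein of lymphocytes that binds DNA and recruits chromatin remodelling complexes.

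The genes fell into 6 groups on the mm9 assembly when neighbours less than 200 kb apart were joined. Most lay in a pair of Hist1 clusters on chromosome 13, with 23 genes between 21807632 and 22135545 and 31 genes between 23622919 and 24026720. Hist1h2al stood alone on the same chromosome. The 9 Hist2 genes lay on chromosome 3, Hist3h2ba and Hist3h2a on chromosome 11, and Hist4h4 on chromosome 6. Ikzf1 is on chromosome 11 too, 47.1 Mb from the Hist3 genes.

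The sequence at the 3′ end set these genes apart from other genes. A 16-base stem-loop, with 6 paired bases on either side of a loop, followed the coding sequence within 300 bases in 61 of the 67 histone genes (91.0%) and in 24 of 22313 other protein-coding genes (0.108%). H4 genes carried their own forms of it. The 5 forms found in more than 1 gene are shown because they carry this division between classes, 5′ to 3′ with the paired arms in capitals.
Form 1 (39 genes, none of H4; for example Hist3h2ba, chr11:58762851-58762866, plus strand): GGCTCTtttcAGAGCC
Form 2 (9 genes, none of H4; for example Hist1h2bl, chr13:21807587-21807602, minus strand): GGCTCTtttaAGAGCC
Form 3 (8 genes, all H4; for example Hist1h4k, chr13:21842019-21842034, minus strand): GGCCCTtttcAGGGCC
Form 4 (2 genes, both H4; for example Hist1h4i, chr13:22132835-22132850, minus strand): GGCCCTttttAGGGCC
Form 5 (2 genes, both H4; for example Hist1h4j, chr13:21827306-21827321, plus strand): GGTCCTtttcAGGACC
The first and second forms differ from each other in the loop, as do the third and the fourth. No stem-loop of this definition was found for Hist1h2an, Hist1h3g, Hist1h4a, Hist1h2al, Hist2h2be or Hist2h2bb.

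Promoter words were counted on both strands from 250 bases before to 50 bases after each start site. CCAAT, the word bound by the factor NF-Y, was present at all 6 H1, all 19 H2A, all 18 H2B and 10 of 11 H3 genes, but at 4 of 13 H4 genes, against 37.8% of other genes. The octamer ATTTGCAT, bound by Oct-1, was present at 7 H2A and 8 H2B genes, at no H1, H3 or H4 gene, and at 1.66% of other genes. GGTCCG, part of the H4 site II element, was present at 12 of 13 H4 genes and 9.73% of others. AAACACA was present at 5 of 6 H1 genes and 6.4% of others, and the TATA-box word TATAAA at 38 of 67 histone genes and 13.3% of others.

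The core word of Ikaros sites, GGGAA, was present at 38 of 67 histone genes (56.7%) and at 62.2% of other genes. By class it was present at 3 of 6 H1, 8 of 19 H2A, 9 of 18 H2B, 5 of 11 H3 and 13 of 13 H4 genes. Every class except H4 was thus below the share of other genes. The AP-1 word TGACTCA was present at 0 of 67 histone genes and at 4.43% of others. These are matches of letters in 1 window and do not show binding.

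There were 12 divergent pairs of an H2A and an H2B gene, with start sites within 500 bases of each other. In 9 of the 12 pairs a single accessible region covered both start sites. The other 3 pairs had no region over either start. Hist1h2ba and Hist1h2aa, genes known for expression in testis, were such a pair, and the nearest region to their start sites was 35597 bases away. The remaining 2 pairs, Hist1h2bq with Hist1h2ao and Hist1h2ap with Hist1h2br, lie in a duplicated stretch. The 167 bases between the start sites of each of these pairs were identical in both copies, with 0 mismatches once 1 copy was reversed.

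The stretch of an accessible pair is shown beside that of a duplicated pair without a region. Both are from mm9, plus strand, from the base after the start of the minus-strand gene to the base before the start of the plus-strand gene, with the NF-Y, TATA-box and octamer words on either strand in capitals.
Hist1h2ae to Hist1h2bg, one region over both (chr13:23663090-23663264): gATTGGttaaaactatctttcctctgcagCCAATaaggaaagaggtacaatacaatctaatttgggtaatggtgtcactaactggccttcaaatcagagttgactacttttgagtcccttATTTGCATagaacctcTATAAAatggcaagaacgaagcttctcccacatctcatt
Hist1h2ap to Hist1h2br, no region (chr13:21925445-21925611): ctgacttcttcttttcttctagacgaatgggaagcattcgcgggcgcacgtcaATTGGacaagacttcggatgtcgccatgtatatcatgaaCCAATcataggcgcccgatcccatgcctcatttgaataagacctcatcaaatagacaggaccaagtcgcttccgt
Both stretches hold CCAAT words, 2 in each. The accessible one also holds 1 TATAAA and 1 octamer. Over all 12 pairs these words did not sort with a region, since 4 accessible pairs, such as Hist1h2ak with Hist1h2bn, hold neither word and the pair of Hist1h2ba and Hist1h2aa, without a region, holds 2 TATAAA and 1 octamer.

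Absence of a region went with repeated sequence at some genes and not at others. For each gene, the share of 50-base words within 250 bases of the start that occur once in the mm9 genome was computed. This share was 0% for Hist1h2bq, Hist1h2ao, Hist1h2ap and Hist1h2br, none of which had a start-site region. It was 100% for Hist1h1t, Hist1h2ba and Hist1h2aa, known as testis histone genes, and for Hist1h3f, and these had no start-site region either. Hist1h3f did have a region in its body, beginning 131 bases downstream of the start, at 29.9 ± 0.435 FPKM in WT ex vivo Treg (SD, n = 3). Reads that fit several places can be lost or shared out by an aligner, so at the 9 genes under 15% the level is uncertain. Of these 9 genes 5 had a start-site region, and 54 of the other 58 had one. Those 58 genes ranged from 55.0% to 100%. Hist1h2af was at 55.7% and Hist1h3d at 63.6%, so levels at such genes can be affected in part.

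**Figure D1:**
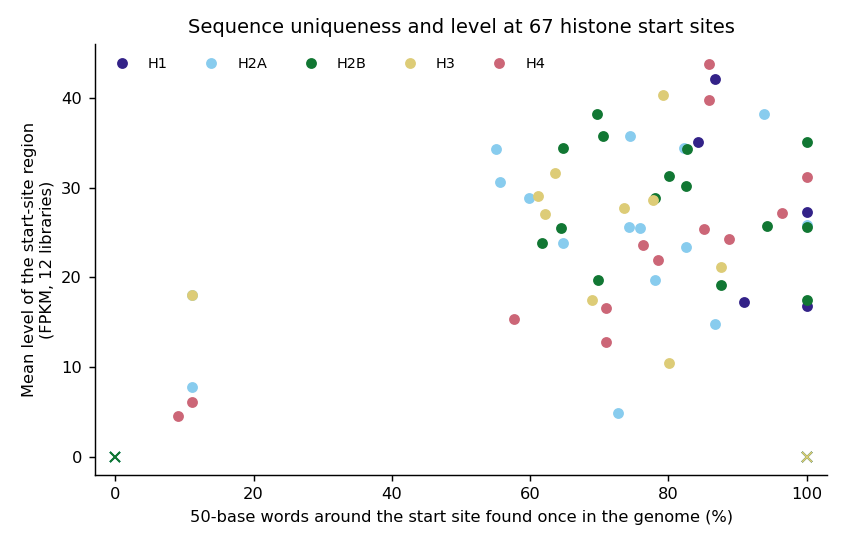
Share of 50-base words around each histone start site that occur once in the mm9 genome (x axis, percent) against the mean level of its start-site region over 12 libraries (y axis, FPKM), coloured by histone class. Crosses at 0 mark the 8 genes with no start-site region, 4 of them drawn on top of each other at 0% and 4 at 100%, and the 5 other genes under 15% sit below 20 FPKM.

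In total 65 of the 67 genes had a region within 2 kb of their body, and 59 had a region over the start site. By class, a start-site region was present for 5 of 6 H1, 16 of 19 H2A, 15 of 18 H2B, 10 of 11 H3 and 13 of 13 H4 genes. Levels are given in FPKM, reads in a region divided by its length in kb and by the library's total of mapped reads over regions. The median level of the 47 start-site regions over the 12 libraries was 25.7 FPKM, with a range of 4.54 to 43.8, and 30 of the 47 were above the median of 13174 start-site regions of other genes, 22.4 FPKM. Histone start-site regions had a median GC content of 55.3% and a median length of 897 bases, against 60.3% and 1105 bases for those of other genes.

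In WT ex vivo Treg the start-site region with the highest mean was that of Hist1h3g, an H3 gene, at 45.2 ± 1.71 FPKM (SD, n = 3). Those of Hist1h1c, a linker histone gene, at 40.1 ± 4.03 FPKM, and of Hist1h4h at 37.4 ± 1.91 FPKM came next. The SDs of Hist1h3g and Hist1h1c overlap, as do those of Hist1h1c and Hist1h4h, and those of Hist1h2af (35.0 ± 4.21), the Hist1h2ak and Hist1h2bn pair (34.6 ± 0.389) and Hist1h4a (34.2 ± 5.91), so the order among these neighbours, the first place included, is not resolved. At the lower end were Hist1h4m (3.01 ± 0.606), Hist1h4n (4.50 ± 1.38), Hist1h2al (5.45 ± 0.490), Hist2h2aa2 (6.70 ± 0.866) and Hist1h3b (10.1 ± 3.26). The highest member of all was no promoter but a 309-base region beginning 547 bases downstream of the Hist1h4h start site, beyond the annotated end of the gene, at 75.9 ± 7.75 FPKM.

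By the mean over all 12 libraries the leading start-site regions of the classes were Hist1h4a for H4 (43.8 FPKM), Hist1h1c for H1 (42.1), Hist1h3g for H3 (40.3) and the shared Hist1h2ae and Hist1h2bg region for H2A and H2B (38.3). The 3 lowest, Hist1h4n, Hist1h2al and Hist1h4m, did not pass the filter on low values, and Hist1h4n, Hist1h4m and the next lowest, Hist2h2aa2 (7.74), are among the genes with repeated sequence.

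**Figure D2:**
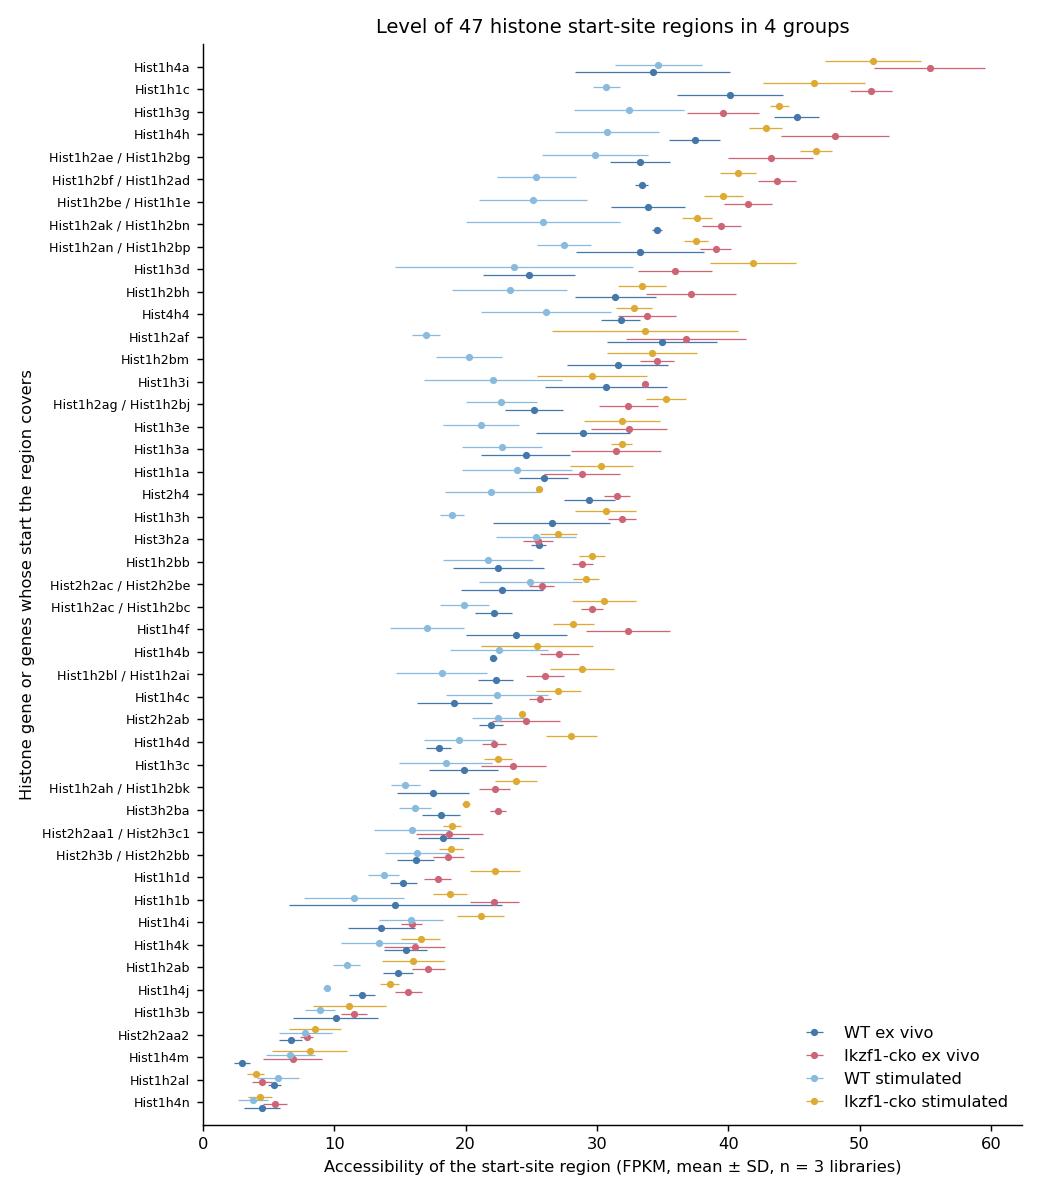
Mean level of each of the 47 histone start-site regions in the 4 groups (x axis, FPKM; bars, SD over 3 libraries), 1 row per region labelled by the genes whose start it covers and ordered by the mean over 12 libraries. Hist1 regions lead the order with Hist1h4a at 43.8 FPKM, and the medians over the rows were 22.8 and 28.8 FPKM in WT and Ikzf1-cko ex vivo and 21.2 and 28.9 FPKM in WT and Ikzf1-cko stimulated Treg.

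Library totals ranged from 4808916 to 15355521 reads in regions, and every Ikzf1-cko library was deeper than every WT library. A tested member had a median of 143 reads per library. The share of a library's reads that fell in start-site regions of other genes moved with the groups. It was 42.9% to 45.5% in WT ex vivo, 47.4% to 48.0% in Ikzf1-cko ex vivo, 39.7% to 41.1% in WT stimulated and 47.7% to 49.6% in Ikzf1-cko stimulated libraries. For this reason values for histone regions are given beside those of other start-site regions. Start-site regions of 9 of 10 marker genes of CD4 T cells and Treg were present, with summed levels of 182 to 291 FPKM over all libraries. Of the B cell list 2 of 7 genes had one (Cd79b and Ebf1, summing to 17.1 to 20.03 FPKM in WT and 12.2 to 16.8 in Ikzf1-cko ex vivo libraries, and to 21.4 to 26.5 and 17.9 to 20.4 after stimulation), and Pax5 had none. Of the myeloid list 2 of 7 had one (Cd14 and Cebpa, 20.3 to 21.5 and 25.8 to 28.7, and 19.5 to 20.1 and 24.8 to 26.5), and Lyz2 and Csf1r had none. Of the erythroid list only Gata1 had one, at 3.85 to 9.46 FPKM. The CD8 T and NK list (Cd8a, Cd8b1 and Klrb1c present, Ncr1 absent) summed to 25.3 to 29.2 FPKM in WT and 16.1 to 21.0 FPKM in Ikzf1-cko ex vivo libraries, and to 25.5 to 28.8 and 18.3 to 22.0 after stimulation. The part of these lists, of depth and of the start-site share in the results was not tested. The 32 regions at Ikzf1 include 2 over start sites, and which of them touches the deleted exon was not given in the sources used here, so accessibility does not check the deletion.

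The first comparison asked how loss of Ikaros altered these regions in Treg taken ex vivo. Histone regions were mostly higher in Ikzf1-cko than in WT Treg, by small amounts. At an adjusted p under 0.05 (edgeR quasi-likelihood test, Benjamini-Hochberg adjustment over all regions), 17 of 61 members were higher and 0 lower, and with the study's added threshold of a log2 fold change beyond 1 in size none passed, where 0.588% of all tested regions passed as higher and 4.04% as lower. At an unadjusted p under 0.05 the counts were 25 higher and 0 lower, DESeq2 gave 16 and 0, and limma 11 and 0. The 3 libraries of each genotype did not overlap for 32 members that were higher and 2 that were lower, against 14.9% and 21% of all tested regions. The median log2 fold change was 0.22, with a range of -0.20 to 0.67. Over all tested regions 8.78% were higher and 12.7% lower, with a median of -0.13. Over start-site regions of other genes 16.9% were higher and 5.44% lower, with a median of 0.09.

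The rise of largest size was at the start site of Hist1h4a (mm9 chr13:23852691-23853652). Its level was 29.2, 32.8 and 40.8 FPKM in the WT libraries and 53.6, 60.1 and 52.2 FPKM in the Ikzf1-cko libraries. All 3 Ikzf1-cko values were above all 3 WT values, with a log2 fold change of 0.67 ± 0.10 (SE; adjusted p = 8e-06, edgeR). The 250 bases before and 50 bases of this gene's start are shown because it held the largest change, 5′ to 3′ on the gene's strand, with the Ikaros core, NF-Y and TATA-box words on either strand in capitals.
Hist1h4a, minus strand (chr13:23853050-23853349): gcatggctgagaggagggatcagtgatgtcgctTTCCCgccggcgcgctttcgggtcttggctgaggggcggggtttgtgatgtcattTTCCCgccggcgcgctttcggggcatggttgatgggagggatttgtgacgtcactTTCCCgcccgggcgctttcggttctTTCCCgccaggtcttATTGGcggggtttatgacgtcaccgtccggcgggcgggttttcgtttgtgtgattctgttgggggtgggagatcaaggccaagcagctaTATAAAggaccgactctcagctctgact
The word TTCCC, the reverse complement of GGGAA, recurs upstream in this window, followed by a CCAAT word on the other strand and a TATAAA word near the start. The window holds no GGTCCG and is that of the 1 H4 gene of 13 without it. GGGAA was found in the windows of all 13 H4 genes and of 62.2% of other genes. Binding here by Ikaros or any other factor was not tested.

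A 224-base region 250 bases upstream of the H3 gene Hist1h3a rose by 0.59 ± 0.20 (adjusted p = 0.0299, edgeR), a call that held in 9 of 13 alternatives and was lost on leaving out any WT ex vivo library or Ikzf1-cko ex vivo replicate 2. The start-site region of Hist1h3d, another H3 gene, was at 22.6, 23.0 and 28.8 FPKM in WT and 33.4, 35.4 and 39.0 FPKM in Ikzf1-cko libraries, which did not overlap, with a log2 fold change of 0.51 ± 0.18 (adjusted p = 0.0412, edgeR). This call held in 6 of 13 alternatives, with adjusted p between 0.011 and 0.23, and was lost with DESeq2, limma, thinned counts, no filter and start-site scaling, and on leaving out WT replicate 1 or 2 or any Ikzf1-cko ex vivo library. That of the H4 gene Hist1h4f rose by 0.42 ± 0.12, from 23.9 ± 3.81 to 32.4 ± 3.20 FPKM (SD, n = 3; adjusted p = 0.00896, edgeR). The region shared by the divergent genes Hist1h2ac and Hist1h2bc rose by 0.42 ± 0.09, from 22.2 ± 1.41 to 29.6 ± 0.843 FPKM (adjusted p = 0.000855, edgeR). The 17 rises were between 1.22-fold and 1.59-fold.

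By histone class, the counts of start-site regions that rose ex vivo were 2 of 5 for H1, 5 of 15 for H2A, 8 of 15 for H2B, 2 of 10 for H3 and 5 of 11 for H4, where a region shared by a divergent pair counts under both classes, against 16.9% of start-site regions of other genes. The H3 share is close to that background. By location, 16 of 47 tested Hist1 regions and 1 of 3 Hist3 regions rose, against 0 of 9 Hist2 and 0 of 2 Hist4 regions. Other regions within 200 kb of the clusters, which are not histone regions, rose in 22 of 120 cases (18.3%) and fell in 5.

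The next comparison asked the same of stimulated Treg. There 39 of 61 members were higher in Ikzf1-cko Treg, and 0 were lower, at an adjusted p under 0.05 (edgeR). None passed the added fold threshold, where 1.16% of all tested regions passed as higher and 20.2% as lower. At an unadjusted p under 0.05 the counts were 43 and 0, DESeq2 gave 42 and 0 with 1 past both thresholds, and limma 39 and 1. Libraries did not overlap for 38 higher and 1 lower, against 23.2% and 34% of all tested regions. The median log2 fold change was 0.49, with a range of -0.53 to 0.99. Over all tested regions 20.4% were higher and 30.7% lower, with a median of -0.11, and over start-site regions of other genes 43.8% were higher and 13.9% lower, with a median of 0.19. Of the 17 members that were higher ex vivo, 16 were also higher after stimulation, which is 94.1% of the first list and 41.0% of the second. Among all 61 tested members, 63.9% were higher after stimulation.

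The start-site region of the H2A gene Hist1h2af showed the largest rise here. Its level was 18.0, 15.9 and 17.2 FPKM in WT stimulated and 25.5, 37.6 and 37.9 FPKM in Ikzf1-cko stimulated libraries, without overlap, and the log2 fold change was 0.99 ± 0.21 (SE; adjusted p = 0.000294, edgeR). Hist1h3d followed, at 18.0, 34.2 and 19.0 FPKM in WT and 38.2, 44.2 and 43.2 FPKM in Ikzf1-cko libraries (0.82 ± 0.20; adjusted p = 0.000844, edgeR). One WT library was far above the other two at this region. The H2B gene Hist1h2bm rose by 0.75 ± 0.11 (adjusted p = 5.01e-06, edgeR) and Hist1h4f by 0.73 ± 0.14 (adjusted p = 6.7e-05, edgeR). Hist1h1c, among the most open members in every group, was at 31.8, 30.6 and 29.8 FPKM in WT and 48.8, 42.1 and 48.8 FPKM in Ikzf1-cko libraries (0.60 ± 0.08; adjusted p = 1.56e-06, edgeR). Its start window is shown as that of a highly accessible H1 gene, with the AAACACA, NF-Y and TATA-box words on either strand in capitals.
Hist1h1c, plus strand (chr13:23830426-23830725): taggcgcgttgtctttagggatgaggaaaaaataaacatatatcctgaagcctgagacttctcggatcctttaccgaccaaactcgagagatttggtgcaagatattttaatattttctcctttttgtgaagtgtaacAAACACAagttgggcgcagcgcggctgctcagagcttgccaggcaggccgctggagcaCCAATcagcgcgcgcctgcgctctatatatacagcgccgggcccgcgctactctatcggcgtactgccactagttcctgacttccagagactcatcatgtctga
The window holds 1 AAACACA word upstream of 1 CCAAT word.

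Start-site regions rose in stimulated Ikzf1-cko Treg for 4 of 5 H1, 10 of 15 H2A, 13 of 15 H2B, 6 of 10 H3 and 8 of 11 H4 regions. Of start-site regions of other genes 43.8% rose. A region shared by a divergent pair again counts under both classes. By location the counts were 36 of 47 for Hist1, 0 of 9 for Hist2, 1 of 3 for Hist3 and 2 of 2 for Hist4. Other regions within 200 kb of the clusters rose in 40 of 120 cases (33.3%) and fell in 9, so the Hist3 count is near that share. The Hist2 regions had a median log2 fold change of 0.15, with a range of -0.53 to 0.24, and the Hist1 regions a median of 0.55, with a range of -0.05 to 0.99. Whether Hist1 and Hist2 regions responded differently was not tested.

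**Figure D3:**
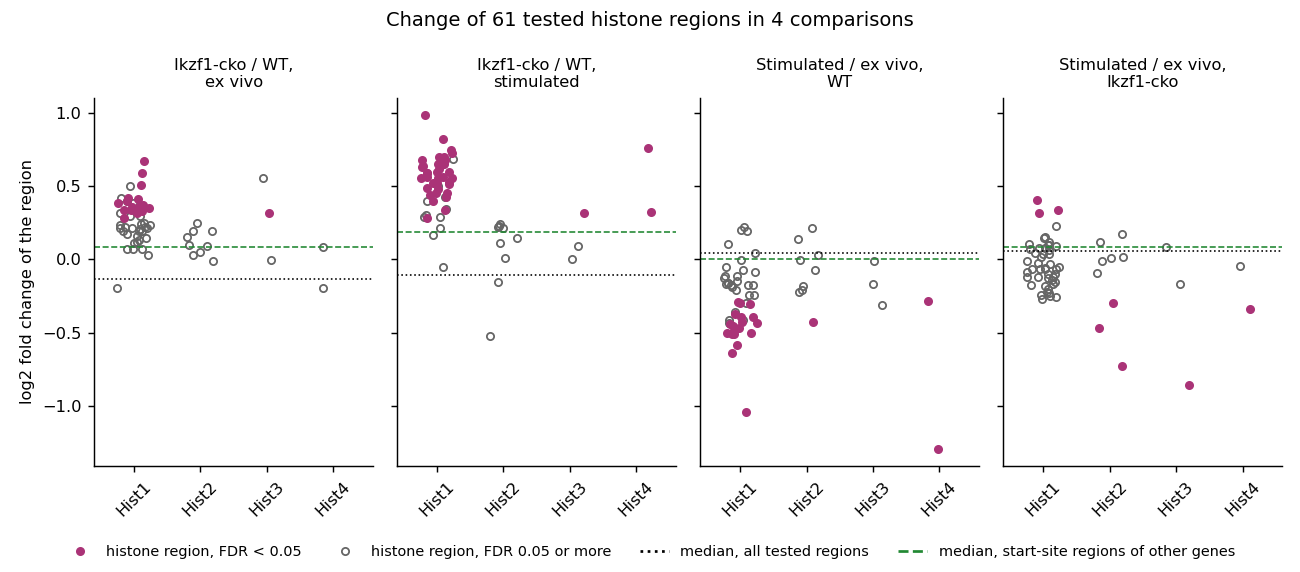
Log2 fold change of each of the 61 tested histone regions (y axis) by gene family (x axis, points spread sideways for legibility) in 4 comparisons, with filled points at an adjusted p under 0.05. Filled points above 0 number 17 and 39 in the Ikzf1-cko against WT panels, the WT stimulation panel has 22 below 0, and dashed and dotted lines give the medians of other start-site regions and of all tested regions.

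Reads can also be compared within a library, here against its reads in start-site regions of other genes. The start-site scaling given below uses the same reference, so these values are not independent of it. The 35 tested Hist1 start-site regions together took 1.73, 1.87 and 1.92 reads per 1000 reads in start-site regions of other genes in WT ex vivo libraries, and 2.10, 2.14 and 2.01 in Ikzf1-cko ex vivo libraries. After stimulation the values were 1.55, 1.80 and 1.63 in WT and 2.03, 2.02 and 2.07 in Ikzf1-cko libraries. In both states every Ikzf1-cko library was above every WT library. The 6 Hist2 start-site regions took 0.328, 0.320 and 0.310 in WT ex vivo, 0.309, 0.333 and 0.331 in Ikzf1-cko ex vivo, 0.299, 0.374 and 0.310 in WT stimulated and 0.318, 0.320 and 0.306 in Ikzf1-cko stimulated libraries, and these groups overlapped. The Hist2 sum includes the regions of Hist2h2aa2 and of Hist2h2aa1 with Hist2h3c1, whose start windows are 11.1% unique, so their levels are uncertain.

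**Figure D4:**
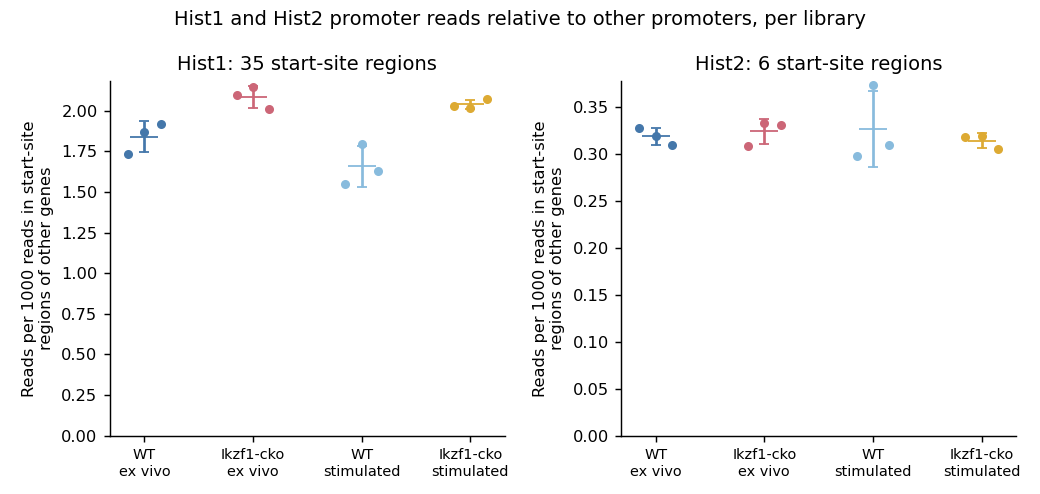
Reads in the 35 Hist1 (left) and 6 Hist2 (right) start-site regions per 1000 reads in start-site regions of other genes (y axis), 1 point per library with the group mean and SD (bars, n = 3). For Hist1 both Ikzf1-cko groups lie above their WT groups, with means of 2.08 against 1.84 ex vivo and 2.04 against 1.66 stimulated, while for Hist2 the groups overlap. Part of the Hist2 sum comes from genes with repeated sequence, whose levels are uncertain.

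How many members passed depended on the scaling. With libraries scaled by their reads in start-site regions of other genes, an alternative added once the data had been seen, 8 members were higher and 1 lower ex vivo, and 21 were higher and 3 lower after stimulation. Quantile normalization left 1 higher and 1 lower ex vivo, and loess scaling against abundance gave 25 higher and 2 lower after stimulation. Single libraries also moved the ex vivo count, to 8 without WT replicate 1, 10 without WT replicate 2 and 8 without Ikzf1-cko replicate 2.

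The comparison of stimulated with ex vivo WT Treg asked how the histone regions differed after stimulation. It shares its libraries with both comparisons above. No group cultured without stimulation is named in the labels, so activation and 4 h in culture cannot be told apart. In WT Treg 22 of 61 members fell on stimulation and 0 rose at an adjusted p under 0.05 (edgeR), with a median log2 fold change of -0.22 and a range of -1.30 to 0.22. Over all tested regions 26.9% rose and 20.7% fell, with a median of 0.04, and over start-site regions of other genes 24% rose and 26.2% fell. At an unadjusted p under 0.05 the counts were 0 higher and 25 lower, DESeq2 gave 0 and 19, and limma 0 and 24. Libraries did not overlap for 0 higher and 22 lower members, against 29.8% and 24.3% of all tested regions. This balance was not stable to scaling, since loess scaling against abundance gave 5 higher and 8 lower, quantile normalization 6 higher and 10 lower, and scaling to other start-site regions 2 higher and 16 lower.

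Under both thresholds 2 members fell, where 2.32% of all tested regions did and 17.7% rose. The first is a 352-base region 554 bases upstream of Hist4h4, the sole Hist4 gene. Its level was 43.7, 39.9 and 40.3 FPKM in WT ex vivo and 17.4, 15.6 and 17.1 FPKM in WT stimulated libraries. The groups did not overlap, and the log2 fold change was -1.30 ± 0.17 (SE; adjusted p = 3.88e-07, edgeR). The start-site region of Hist4h4 itself fell by 0.29 on the log2 scale (adjusted p = 0.0317, edgeR), and the ratio of the upstream to the start-site region dropped from 1.44, 1.26 and 1.21 in WT ex vivo libraries to 0.715, 0.491 and 0.766 in WT stimulated ones. The first 300 bases of the upstream region are shown because it held the largest fall, on the plus strand of mm9, with the NF-Y, Ikaros core and AP-1 words on either strand in capitals.
Region upstream of Hist4h4 (chr6:136753454-136753753): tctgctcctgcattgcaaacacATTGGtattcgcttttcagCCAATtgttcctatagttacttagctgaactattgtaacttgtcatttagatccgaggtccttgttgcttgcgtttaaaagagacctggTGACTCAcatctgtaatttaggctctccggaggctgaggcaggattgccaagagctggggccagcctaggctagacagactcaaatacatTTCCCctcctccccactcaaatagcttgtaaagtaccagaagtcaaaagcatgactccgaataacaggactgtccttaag
The stretch holds a TGACTCA word, which no histone start window held, and 2 CCAAT words.

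The other is the start-site region of Hist1h2af, at 34.3, 31.1 and 39.4 FPKM in WT ex vivo and 18.0, 15.9 and 17.2 FPKM in WT stimulated libraries (-1.04 ± 0.22; adjusted p = 0.000336, edgeR). It lies just past the fold threshold, and the change was -0.93 without WT ex vivo replicate 3 and also under 1 in size without WT stimulated replicate 2. Its start window is shown with the NF-Y, TATA-box and octamer words on either strand in capitals.
Hist1h2af, plus strand (chr13:23625525-23625824): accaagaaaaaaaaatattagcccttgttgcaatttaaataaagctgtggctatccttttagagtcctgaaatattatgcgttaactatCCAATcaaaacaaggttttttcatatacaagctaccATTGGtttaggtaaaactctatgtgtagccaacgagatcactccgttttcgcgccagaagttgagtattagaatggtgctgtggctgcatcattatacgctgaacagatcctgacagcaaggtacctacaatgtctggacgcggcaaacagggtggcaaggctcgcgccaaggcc
It holds 2 CCAAT words and neither of the other words.

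Further falls on stimulation of WT Treg were at the start of Hist1h2bm, from 31.6 ± 3.82 to 20.3 ± 2.52 FPKM (SD, n = 3; -0.64 ± 0.12 on the log2 scale; adjusted p = 7.84e-05, edgeR), and at the region downstream of Hist1h4h, where the libraries were at 69.1, 74.2 and 84.3 FPKM ex vivo and 39.6, 48.5 and 67.3 FPKM stimulated (-0.59 ± 0.14; adjusted p = 0.00129, edgeR). A region at the 3′ end of the H1 gene Hist1h1b, lying mostly beyond the annotated end of the gene, fell by 0.51 on the log2 scale (adjusted p = 0.000643, edgeR). Falls were found in 19 of 47 Hist1, 1 of 9 Hist2, 0 of 3 Hist3 and 2 of 2 Hist4 regions, the last both at Hist4h4. Of all tested regions 20.7% fell, as did 26.2% of start-site regions of other genes. Among other regions within 200 kb of the clusters 24.2% fell. With so few regions, the Hist2 and Hist3 counts cannot be told apart from these shares.

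In Ikzf1-cko Treg fewer members passed an adjusted p under 0.05 on stimulation than in WT Treg. The same held for all tested regions, of which 26.9% rose and 20.7% fell in WT Treg. At an adjusted p under 0.05, 3 members rose and 5 fell (edgeR), with none past the fold threshold, which 3.02% of all tested regions passed as higher and 0.632% as lower, and a median log2 fold change of -0.06. Over all tested regions 12% rose and 11.5% fell, and the median was 0.06. At an unadjusted p under 0.05 the counts were 3 and 6, while DESeq2 gave 0 and 2 and limma 0 and 4. Libraries did not overlap for 6 higher and 15 lower members, against 20.4% and 17.3% of all tested regions. Of start-site regions of other genes 22.1% rose and 9.09% fell. Of members 4.92% rose and 8.2% fell, and the share that fell is close to that background. The 3 that rose were the start-site regions of the H4 genes Hist1h4i (15.9 ± 0.805 to 21.1 ± 1.76 FPKM) and Hist1h4d (22.2 ± 0.922 to 28.1 ± 1.97) and of the H1 gene Hist1h1d (17.9 ± 1.04 to 22.3 ± 1.92). The 5 that fell were a region 998 bases upstream of Hist3h2a (20.7 ± 0.521 to 11.4 ± 2.10 FPKM), a region inside Hist2h2bb, the start-site region and a gene-body region of Hist2h4, and the region upstream of Hist4h4 (-0.34 ± 0.13; adjusted p = 0.0467, edgeR). Each of the 3 rises held in 6 of 13 alternatives and the fall upstream of Hist4h4 in 5 of 13.

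Whether the response to stimulation differed between genotypes was tested by the interaction of genotype and stimulation, which uses all 4 groups. For 6 of 61 members the change on stimulation was more positive in Ikzf1-cko than in WT Treg at an adjusted p under 0.05 (edgeR), for 0 it was more negative, and none passed the fold threshold, which 0.579% of all tested regions passed in the positive and 1.4% in the negative direction. Over all tested regions 5.66% were more positive and 1.82% more negative. Over start-site regions of other genes 9.88% were more positive and 1.27% more negative. The share of members that were more positive, 9.84%, is close to that background. At an unadjusted p under 0.05 the counts were 17 and 0, DESeq2 gave 4 and 0 and limma 5 and 0. The count was 1 with loess scaling against abundance, 2 with scaling to other start-site regions, 3 with thinned counts, 3 without WT ex vivo replicate 3 and 2 without WT stimulated replicate 1. The median interaction of the members was 0.21, against 0.00 over all tested regions and 0.09 over start-site regions of other genes.

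The region upstream of Hist4h4 had the largest interaction, 0.96 ± 0.21 (SE; adjusted p = 0.00511, edgeR). Against its fall in WT, it was at 37.9, 37.2 and 32.1 FPKM in Ikzf1-cko ex vivo and 26.8, 25.7 and 32.0 FPKM in Ikzf1-cko stimulated libraries. The start-site region of Hist1h2af was at 36.0, 41.7 and 32.7 FPKM in Ikzf1-cko ex vivo and 25.5, 37.6 and 37.9 FPKM in Ikzf1-cko stimulated libraries, so the groups overlapped there (interaction 0.92 ± 0.27; adjusted p = 0.0327, edgeR), and this call held in 6 of 12 alternatives and was lost on leaving out any WT stimulated library. The neighbouring gene Hist1h3g gave 43.2, 45.9 and 46.4 FPKM in WT ex vivo, 28.1, 36.5 and 32.8 in WT stimulated, 42.5, 39.1 and 37.2 in Ikzf1-cko ex vivo and 43.1, 44.3 and 44.3 in Ikzf1-cko stimulated libraries (0.63 ± 0.16; adjusted p = 0.0133, edgeR). The other 3 were the start of Hist1h2bm (0.63 ± 0.15), the region at the 3′ end of Hist1h1b (0.57 ± 0.15) and the start of Hist1h1d (0.48 ± 0.15).

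**Figure D5:**
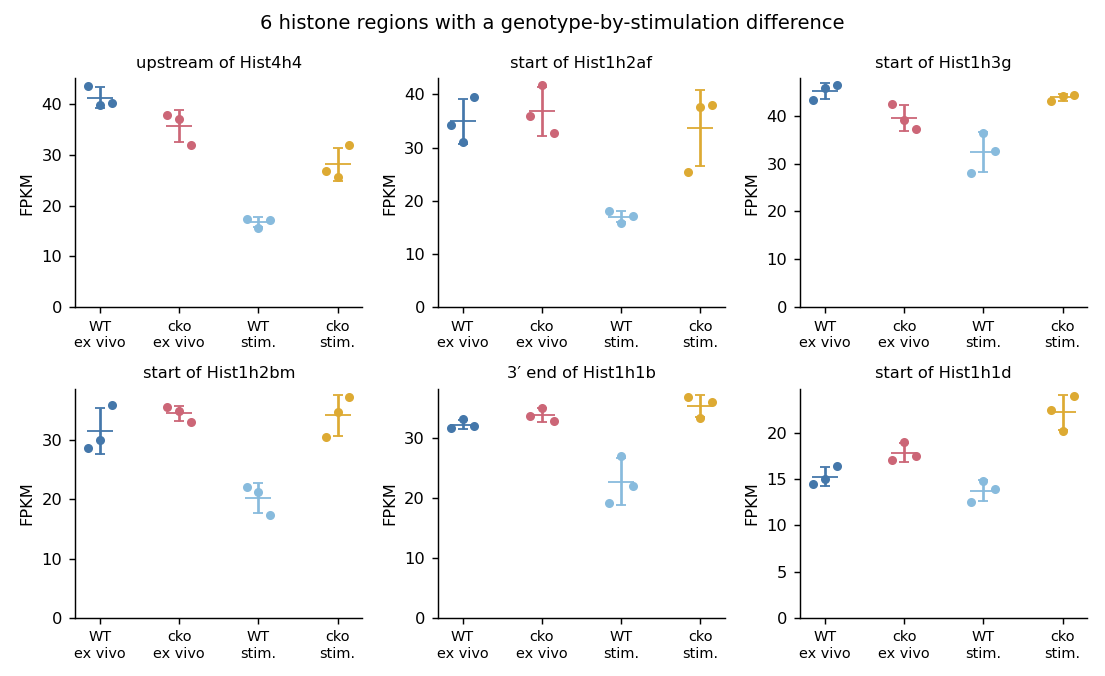
Level of the 6 histone regions whose stimulation response differed between genotypes (y axes, FPKM), with 1 point per library and the group mean and SD (bars, n = 3). The WT stimulated group has the lowest mean in every panel, for example 15.6 to 17.4 FPKM upstream of Hist4h4 against 25.7 to 32.0 FPKM in Ikzf1-cko stimulated libraries.

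Genes that act on histone genes were examined through their own start-site regions. Npat was at 78.4 ± 5.12 FPKM in WT ex vivo and 85.9 ± 1.96 in Ikzf1-cko ex vivo (adjusted p = 0.171, edgeR), and at 70.4 ± 4.14 in WT stimulated and 87.8 ± 4.16 in Ikzf1-cko stimulated libraries (SD, n = 3; 0.32 ± 0.07 on the log2 scale; adjusted p = 0.000408, edgeR). Casp8ap2, whose product FLASH acts in histone mRNA processing at the histone locus body, rose in Ikzf1-cko Treg ex vivo, from 74.6 ± 5.64 to 94.1 ± 4.64 FPKM, and after stimulation, from 59.7 ± 3.24 to 93.4 ± 3.77 FPKM (0.65 ± 0.08; adjusted p = 1.31e-07, edgeR). Slbp rose by 0.21 ± 0.08 ex vivo (adjusted p = 0.0452, edgeR) and by 0.28 ± 0.08 after stimulation (adjusted p = 0.00442, edgeR).

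Of the 16 genes of histone gene expression and processing, 8 start-site regions were higher and 1 lower in Ikzf1-cko Treg ex vivo, and 13 were higher and 0 lower after stimulation. The counts were 2 and 6 higher of 12 for cyclin E and E2F genes, 3 and 14 higher of 18 for DNA replication genes, and 3 and 6 higher of 9 for histone chaperones, with none lower. Of start-site regions of other genes, 16.9% were higher ex vivo and 43.8% after stimulation, so the cyclin E and E2F counts and the ex vivo DNA replication count are near the background. For replication-independent histone genes, which supply histones outside S phase, 2 and 3 of 8 were higher and none lower, which is also near that background. No gene of these lists passed the fold threshold in any comparison. Between ex vivo and stimulated WT Treg, 8 of the 18 DNA replication genes fell and 3 rose, and 5 of the 16 histone expression genes fell and 3 rose, against 26.2% and 24% of start-site regions of other genes.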

How the data were processed

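The members, gene lists and tests were chosen with earlier results of these data known. ATAC-seq was done on 12 libraries, 3 in each of 4 groups taken from the sample labels. Per the study's methods, the authors aligned reads with Bowtie2, removed duplicates, called peaks with MACS2 in each replicate, kept peaks seen in at least 2 replicates and merged them. The deposited counts are de-duplicated reads per region on mm9 in the labels, although the methods text names a human build for alignment. The authors scaled libraries to 10 kb background bins, which could not be rebuilt from regions, so library totals over regions were used here. The deposited table of the authors' own comparisons (fold changes and p-values) was not used.

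A region was tested where it reached 3.6 CPM in 3 or more libraries, with edgeR 4.0.16 (R 4.3.3), a quasi-likelihood fit over all 4 groups with Benjamini-Hochberg adjustment over 69957 regions. The thresholds were an adjusted p under 0.05, and also a log2 fold change over 1 in size. limma 3.58.1, with pseudocounts of 1 and 0.1, and DESeq2 1.42.0 were alternatives. In a test on simulated data for the ex vivo genotype comparison over 69957 regions, edgeR recovered 195 of 200 regions changed by 2 on the log2 scale, with 4 false calls. The FPKM values are those the authors deposited, computed by them from counts, region length and library total, and the deposited log2 FPKM values, to which the authors added a small prior, were not needed for any result. Tested members had 6 to 1252 reads per library, so the low ones have wide counting error. 200 regions on unplaced sequence had 0 reads. Sequences and genes were read from the mm9 genome (NCBIM37) and its annotation. Named regions were, per comparison, those past both thresholds and the 5 of largest change in each direction at an adjusted p under 0.05, the 5 highest and 5 lowest start-site regions, the highest of each class, and Npat, Slbp and Casp8ap2.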

Additional observations from a re-analysis of the deposited data

Results flagged for a closer look

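The change on stimulation differed between genotypes at 6 of 61 histone regions (9.84%) by the interaction term of edgeR's quasi-likelihood fit (Benjamini-Hochberg adjusted p under 0.05). A difference of this sign was found in 5.66% of all tested regions and in 9.88% of start-site regions of other genes. The histone share is thus close to that of other start-site regions. On the log2 scale the difference, Ikzf1-cko minus WT, was 0.96 upstream of Hist4h4, 0.92 at the start of Hist1h2af, 0.63 at the start of Hist1h2bm, 0.63 at the start of Hist1h3g, 0.57 at the 3′ end of Hist1h1b and 0.48 at the start of Hist1h1d. Over the alternatives the upstream Hist4h4 region stayed past the threshold in 11 of 12 and Hist1h2af in 6 of 12. The number of such regions was 1 with loess scaling against abundance, 2 with start-site scaling, 3 with thinned counts, 3 without WT ex vivo replicate 3 and 2 without WT stimulated replicate 1. Groups of 3 libraries were too small for a test of single outlying libraries.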

How the results depend on the processing

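Counts of histone regions at an adjusted p under 0.05 alone were 17, 39, 22, 8 and 6 for the ex vivo genotype, stimulated genotype, WT stimulation, Ikzf1-cko stimulation and interaction comparisons, against 0, 0, 2, 0 and 0 under both thresholds. Ex vivo, the number higher was 27 with TMM factors, 32 with loess against GC content, 11 with limma at either pseudocount, 1 (and 1 lower) with quantile normalization, 9 with counts thinned to equal depth, and 8 (and 1 lower) when scaled to other start-site regions, a setting chosen after seeing the data. In stimulated Treg the number past both thresholds was 1 with TMM, DESeq2, quantile normalization or thinning, 3 with loess against abundance and 6 with loess against GC, and the number higher was 25 (2 lower) with loess against abundance and 21 (3 lower) when scaled to start-site regions, with 1 lower under limma at either pseudocount, quantile normalization and thinning. For WT stimulation the number past both thresholds was 1 with loess against abundance or GC, limma at pseudocount 1, quantile normalization, start-site scaling, gene bodies with no flank and start-site regions only. The split was 5 higher and 8 lower with loess against abundance, 6 and 10 with quantile normalization, 2 higher with start-site scaling, and 39 lower with loess against GC. For Ikzf1-cko stimulation 1 passed both thresholds with loess against abundance. The number higher was 0 with TMM, DESeq2, loess against GC, limma, quantile normalization and thinning, and the number lower was 2 with DESeq2, 0 with quantile normalization, 1 with thinning, 3 with no flank and 1 with start-site regions only. For the interaction 1 passed both thresholds with thinning, and the number higher was 1 with loess against abundance, 3 with thinning and 2 with start-site scaling. The cause of these moves was not tested. Over all tested regions the median log2 change moved from -0.13 to -0.25 ex vivo and from -0.11 to -0.37 after stimulation under start-site scaling. No named region reversed, and 115 of 693 values of named regions lost their call.

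Leaving out 1 library gave 0 to 0, 0 to 1, 1 to 2, 0 to 1 and 0 to 1 regions past both thresholds in the 5 comparisons in the order above. At an adjusted p alone it gave 8 to 19, 28 to 44, 0 to 1, 1 to 3 and 2 to 8 higher, and 0 to 0, 0 to 1, 11 to 23, 1 to 6 and 0 to 0 lower. The WT stimulation count was 13 without WT ex vivo replicate 3 and 11 without WT stimulated replicate 1. The interaction count was 3 and 2 without the same libraries. In the Ikzf1-cko comparison the number lower was 2 without Ikzf1-cko ex vivo replicate 1 or 2 or stimulated replicate 1, and 1 without stimulated replicate 2, and the number higher was 1 without ex vivo replicate 1 or stimulated replicate 1 or 2.

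The study's methods divided sorted Treg into a stimulated and an unstimulated part, so libraries of a genotype may be paired by mouse. Replicate numbers are shared between groups, but no source ties them to a mouse or day. The deviations of same-numbered libraries correlated at -0.376 to 0.242, and the numbers were not taken as pairs in the main fit. With a replicate block the counts were 17 and 39 higher for the genotype comparisons, 21 lower for WT stimulation, 3 higher and 4 lower for Ikzf1-cko stimulation and 5 for the interaction, and no count moved by over 1.5 times.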
